A study of Mus musculus with 16 samples.

Results

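Sorted distal colon goblet cells of mice labelled as lacking Spdef were compared with the rest of the colon epithelium of the same genotype, across all genes of a count table. Of the 16 RNA libraries of the series, 8 belong to this comparison: 4 from mCherry-positive cells (SpdefKO_GC, libraries 3, 5, 7 and 19) and 4 from mCherry-negative cells (SpdefKO_EC, libraries 4, 6, 8 and 20). They came from SpdefKO_RedMUC298trTg mice aged 6–8 weeks, that is, mice with the RedMUC298trTg transgene, whose mCherry marks goblet cells, on a background labelled SpdefKO. Live cells were sorted by mCherry against a C57Bl6 mouse as negative control, and libraries were made from total RNA after removal of ribosomal RNA. The other 8 libraries are the same fractions of RedMUC298trTg mice of the same age (WT_GC and WT_EC, 4 each), which carry the transgene too and serve here to test whether a difference between fractions depended on genotype. The sources used here do not give which part of Spdef the allele removes or what drives the transgene, nor whether each library is a mouse of its own. The spread behind each p-value is therefore that between libraries and may be technical in part.

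Goblet cells are the secretory cells of the gut that make the gel-forming mucin Muc2. They fold and glycosylate it in a large endoplasmic reticulum (ER) and Golgi, store it in granules and release it as mucus. Secretory cells are set apart from absorptive colonocytes by Notch signalling, in which cells that express the transcription factor Atoh1 present Delta ligands and their neighbours become absorptive. Spdef is a transcription factor of the Ets family that acts below Atoh1 in the maturation of goblet cells, and enteroendocrine (hormone-secreting) and tuft (chemosensory) cells are the other secretory or rare cell types of this epithelium.

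Levels are CPM, gene counts scaled to a common (TMM-normalised) library size, and are given per library in the order above. A gene is said to have risen (higher in SpdefKO_GC) or fallen when its Benjamini-Hochberg adjusted p was under 0.05 in the edgeR quasi-likelihood test over all 12915 genes tested, with 4 libraries a group. Log2 differences are SpdefKO_GC minus SpdefKO_EC unless WT is named, and ± gives their approximate standard error; after a level, ± gives the SD. Gene counts summed to 13423723–16445550 per library in SpdefKO_GC and 10085637–16522063 in SpdefKO_EC. More genes were detected in SpdefKO_GC (17221–18056) than in SpdefKO_EC (15108–15775). RNA of the goblet cells was purified on another kind of column (MinElute) than that of the other cells (Mini), so column and cell fraction cannot be told apart.

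Spdef, the targeted gene, was at 369, 373, 446 and 294 CPM in SpdefKO_GC and at 2.04, 1.89, 3.51 and 1.15 CPM in SpdefKO_EC. In WT it was at 280.0, 306, 281 and 315 CPM in goblet cells and at 2.54, 1.82, 3.77 and 2.64 CPM in the other cells. The libraries labelled SpdefKO_GC thus held Spdef reads at levels that overlapped those of WT_GC, so the count over the whole gene gives no check of the genotype label. Spdef itself was higher in SpdefKO_GC than in SpdefKO_EC (log2 7.37 ± 0.21, adjusted p = 1.34e-14), as it was in WT (log2 6.77). Its position is chromosome 17, 27714352–27728955 of GRCm38 (minus strand). SpdefKO_GC and SpdefKO_EC stand throughout for the libraries labelled so.

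The fractions differed at a majority of genes. In SpdefKO_GC 3619 genes were higher (28% of those tested) and 3666 lower (28.4%), and before adjustment 7848 genes had p under 0.05. At least 2-fold differences made up 1140 of the higher genes (8.83% of all tested) and 1311 of the lower (10.2%), and at least 10-fold differences 236 and 135. With upper-quartile scaling, which moved the median log2 of all genes from 0.0313 to 0.146, 4752 genes were higher and 3047 lower. Against a bound of 1.5-fold rather than 0, 1312 were higher and 1580 lower.

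The leading markers of the goblet fraction were separated from the other epithelium by 372- to 446-fold. Muc2, the gel-forming mucin (chromosome 7, 141690340–141754693 of GRCm38, plus strand), was at 10810.0, 14810.0, 12680.0 and 11900.0 CPM in SpdefKO_GC and at 23.7, 41.1, 21.1 and 26.5 CPM in SpdefKO_EC. All 4 goblet libraries lay far above all 4 others, and Muc2 rose 446-fold (log2 8.80 ± 0.22, adjusted p = 2.01e-15). Mptx1, a mucosal pentraxin of the crypt base (chromosome 1, 174330518–174332873, plus strand), was at 1379, 2369, 2033 and 2281 CPM and 4.34, 5.87, 4.81 and 5.32 CPM, with library 3 lowest among the goblet libraries (log2 8.63 ± 0.38, adjusted p = 3.44e-11). Spink4, a Kazal-type protease inhibitor of goblet granules (chromosome 4, 40920052–40931395, plus strand), was at 1630.0, 1711, 1508 and 1561 CPM and 4.47, 4.18, 4.42 and 4.07 CPM, the narrowest spread of the markers (log2 8.54 ± 0.22, adjusted p = 4.5e-15). Nov, a secreted matricellular protein whose current symbol is Ccn3 (chromosome 15, 54745702–54754039, plus strand), was at 1352, 970.3, 1577 and 1104 CPM and 4.72, 2.48, 2.86 and 3.13 CPM (log2 8.56 ± 0.26, adjusted p = 8.31e-14). None of these groups overlapped. Lack of overlap was common between the SpdefKO fractions. Of the 12915 genes tested, 3040 were higher in SpdefKO_GC without overlap and 3169 were lower without overlap.

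Aqp8, a water channel of absorptive colonocytes (chromosome 7, 123462291–123468004, plus strand), gave the largest fall among genes of at least 5 CPM. It was at 42.01, 26.8, 31.6 and 35.7 CPM in SpdefKO_GC and at 1355, 983, 1327 and 777 CPM in SpdefKO_EC, a 32.6-fold difference (log2 -5.03 ± 0.20, adjusted p = 1.58e-12). In SpdefKO_GC it was thus low but read in every library.

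**Figure D1:**
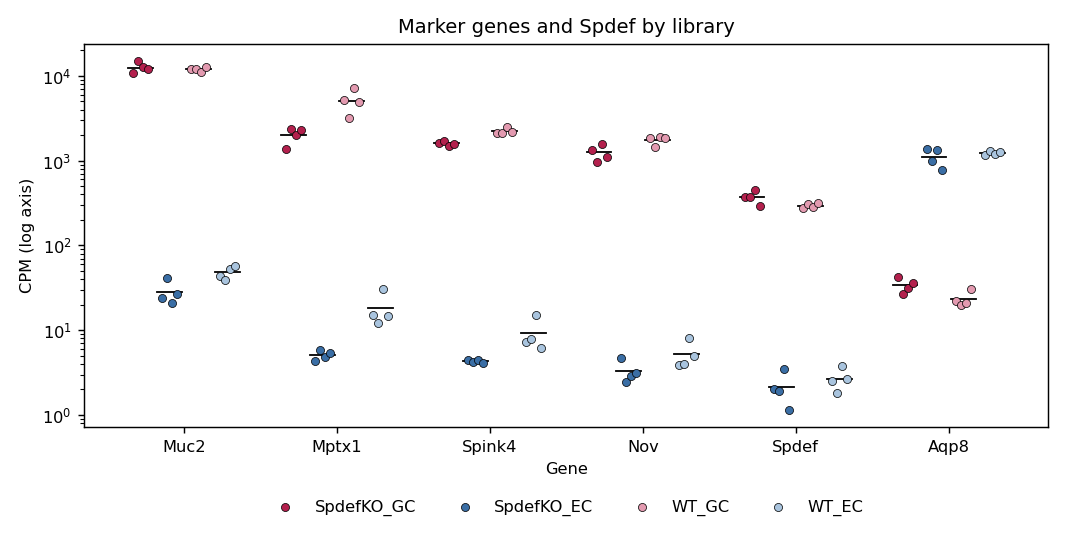
CPM of Muc2, Mptx1, Spink4, Nov, Spdef and Aqp8 on a log axis, with a point for each library (4 per group) and a line at the group mean, coloured by group. The goblet fraction lies above the other epithelium in both genotypes for all but Aqp8, which lies below it, and Spdef is at 294–446 CPM in SpdefKO_GC.

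Beside these, Gm6086, Fcgbp and Capn9 were among the 8 largest rises with at least 5 CPM and no overlap. Gm6086 (current symbol Gal3st2c) and Gal3st2, whose products add sulfate to galactose, belong to a family of similar copies and may share reads, so their values are uncertain. They were at 50.6 against 0.0975 CPM and 45.2 against 0.594 CPM (log2 8.77 and 6.24). Fcgbp, a large protein of the mucus gel, was the most abundant goblet product by CPM, at 18190.0, 25730.0, 16380.0 and 21740.0 CPM in SpdefKO_GC (log2 8.46 ± 0.20, adjusted p = 1.17e-16). Capn9, a calpain protease of the gut, was at 147 against 0.392 CPM (log2 8.46 ± 0.17, adjusted p = 1.5e-17).

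The mucus and granule proteins were higher as a group. Of 22 listed, 18 were tested and all 18 rose, against 28% of all genes tested, with a median log2 of 7.41 beside 0.0313 over all genes. Muc5b, Muc6, Tff1 and Tff2 were too low to be tested. Clca3 (current symbol Clca1), a mucus-processing protease, was at 8964 ± 1028 CPM in SpdefKO_GC and 66.2 ± 9.94 CPM in SpdefKO_EC. Zg16, a lectin that binds bacteria, was at 7618 ± 2094 CPM in SpdefKO_GC and 67.9 ± 9.24 CPM in SpdefKO_EC, with library 19 apart at 10760.0 CPM. Tff3, a trefoil peptide, was at 2721 against 20.7 CPM, and Agr2, a disulfide isomerase needed for mucin folding, at 5300.0 against 277 CPM. Best2, a bestrophin channel of colon goblet cells, was at 213 against 0.605 CPM and Retnlb, a bactericidal resistin-like protein, at 63.8 against 0.304 CPM. Retnlb was the most variable of these, at 77.7, 58.8, 101 and 17.5 CPM over the goblet libraries (log2 7.68 ± 0.63, adjusted p = 5.28e-08).

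Per kilobase of annotated exon, the goblet level of Zg16 was 6061 CPM, that of Tff3 5519, of Agr2 4105, of Spink4 3359, of Clca3 2373 and of Fcgbp 1954. The order per length thus differed from that by CPM, in which Fcgbp came first. Over the whole list the summed level was 56340–69330 CPM in the SpdefKO_GC libraries and 976–1109 CPM in SpdefKO_EC. In WT it was 51900–59550 and 1096–1391 CPM. Fewer goblet cells among the sorted cells and less goblet RNA per cell cannot be told apart in such bulk libraries, here or in any list below.

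Muc2, Fcgbp, Clca3 and Tff3 had a larger difference between fractions in SpdefKO than in WT. Among all 18 tested mucus and granule proteins, 5 had a larger and 1 a smaller difference, against 4.88% and 4.65% of all genes. For Tff3 the log2 was 7.05 against 6.19 (interaction 0.85 ± 0.18, adjusted p = 0.00464). The interactions of Fcgbp (0.83 ± 0.20, adjusted p = 0.0149) and Clca3 (0.70 ± 0.19, adjusted p = 0.0231) were tested in the same way. Between the genotypes the goblet level of Muc2 was 12550.0 CPM in SpdefKO_GC and 12087 CPM in WT_GC, and its level in the other cells 28.1 and 48.4 CPM. The interaction of Muc2 (0.84 ± 0.23, adjusted p = 0.0307) was lost without the filter on low counts (adjusted p = 0.0812). It was also lost without any of WT_EC 17, WT_GC 9, WT_GC 13, SpdefKO_EC 4, SpdefKO_EC 8 or SpdefKO_GC 5 (adjusted p 0.0504–0.0683). The interaction of Clca3 was lost without WT_EC 17 (adjusted p = 0.0519). Spink4, Mptx1, Nov, Aqp8 and Spdef did not pass the interaction test (adjusted p = 0.164, 0.536, 0.805, 0.0962 and 0.261). With neighbouring library numbers as pairs (3 and 4, 5 and 6 and so on), a block chosen after seeing the data, Spink4, Mptx1 and Aqp8 passed it (adjusted p = 0.0456, 0.0358 and 0.0304). Aqp8 also passed with DESeq2 (adjusted p = 0.0432) and without WT_GC 18 (0.0386). Over all genes 630 had a larger (4.88%) and 601 a smaller (4.65%) signed log2 difference in SpdefKO than in WT, and before adjustment 3128 had p under 0.05. With the block, 1654 (12.8%) had a larger and 1675 (13%) a smaller difference after adjustment.

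Of the 20 transcription factors of goblet and secretory cells, 12 rose and 5 fell (60% and 25%, against 28% and 28.4% of all genes), so the share that fell was no larger than over all genes. Atoh1, the factor that specifies secretory cells, was at 355, 400.4, 292 and 356 CPM in SpdefKO_GC and 1.59, 1.96, 1.88 and 1.46 CPM in SpdefKO_EC (log2 7.64 ± 0.14, adjusted p = 2.66e-18). No library of one group came near those of the other. Gfi1, a zinc finger repressor downstream of Atoh1, was at 48.5 against 0.388 CPM (log2 6.98 ± 0.23, adjusted p = 1.18e-14), and Foxa3, a forkhead factor of goblet cells, at 91.01 against 18.6 CPM (log2 2.29 ± 0.13, adjusted p = 2.58e-11). The 5 that fell were Klf4, Cdx2, Nr3c1, Hnf4g and Elf3, by 0.82, 0.78, 0.65, 0.50 and 0.36 on the log2 scale. Klf4 is a zinc finger factor of differentiated colon epithelium, Cdx2 and Hnf4g are factors of intestinal identity, Nr3c1 is the glucocorticoid receptor and Elf3 an epithelial Ets factor.

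Creb3l4, an ER-anchored transcription factor, rose in both genotypes by very different amounts. It was at 8.49, 9.25, 6.86 and 7.32 CPM in SpdefKO_GC and 2.55, 1.89, 2.53 and 4.48 CPM in SpdefKO_EC (log2 1.54 ± 0.23, adjusted p = 1.77e-05), against means of 194 and 4.54 CPM in WT_GC and WT_EC (log2 5.41). The interaction was -3.87 ± 0.32, adjusted p = 1.92e-06. B3gnt6, the synthase of core 3 O-glycans, showed the same order of values: 1.95, 2.36, 2.05 and 1.92 CPM in SpdefKO_GC and 0.893, 1.305, 1.36 and 1.25 CPM in SpdefKO_EC, beside 58.9 against 1.29 CPM in WT (log2 0.78 and 5.50, interaction -4.72 ± 0.27, adjusted p = 7.26e-09). Casc4 (current symbol Golm2), a Golgi membrane protein, was at 3.51 against 2.13 CPM in SpdefKO and 66.5 against 2.49 CPM in WT (log2 0.73 and 4.75, interaction -4.01 ± 0.26, adjusted p = 3.04e-08). Each of the 3 genes still passed the test between SpdefKO fractions, at goblet levels far below those of WT_GC. Against the 1.5-fold bound B3gnt6 and Casc4 did not pass (adjusted p = 0.2305 and 0.3079).

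Of 45 enzymes of mucin O-glycosylation tested, 29 rose and 11 fell (64.4% and 24.4%, against 28% and 28.4% of all genes), so the share that fell was no larger than over all genes, with a median log2 of 0.745 (1.14 in WT). St6gal1, which adds alpha2,6-linked sialic acid, was at 630.4, 665, 626 and 704 CPM against 2.105, 2.35, 2.66 and 2.92 CPM (log2 8.05 ± 0.13, adjusted p = 1.56e-18). Galnt5, a starter of O-glycan chains, was at 209 against 14.4 CPM (log2 3.87 ± 0.15, adjusted p = 1.91e-13). In the other direction, St3gal1, which caps core 1 chains with sialic acid, was at 1.49 against 16.7 CPM (log2 -3.50 ± 0.32, adjusted p = 7.51e-08), St3gal4, another sialyltransferase, at 61.6 against 369 CPM (log2 -2.58 ± 0.19, adjusted p = 7.7e-09) and B4galt1, a galactosyltransferase, at 46.1 against 249.8 CPM (log2 -2.44 ± 0.08, adjusted p = 8.66e-15). Among these 45 genes, 13 had a smaller signed difference in SpdefKO than in WT and 1 a larger one, against 4.65% and 4.88% of all genes.

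Folding and quality control genes of the ER rose in a large share. Of 44 tested, 39 rose and 2 fell (88.6% and 4.55%, against 28% and 28.4% of all genes), with a median log2 of 1.01 (1.28 in WT). Against the 1.5-fold bound 27 rose, beside 1312 of all 12915 genes. Txndc5, a thioredoxin-domain disulfide isomerase, was at 1134, 1238, 1109 and 1051 CPM and 134, 139.9, 137 and 134 CPM (log2 3.06 ± 0.09, adjusted p = 1.87e-15). Pdia5, another isomerase, was at 188 against 24.5 CPM (log2 2.94 ± 0.11, adjusted p = 3.29e-14), and Fkbp11, a prolyl isomerase of secretory cells, at 28.8 against 2.51 CPM (log2 3.52 ± 0.18, adjusted p = 5.38e-12). The 2 that fell were Dnajb9, an ER co-chaperone of the unfolded protein response (log2 -0.53 ± 0.12, adjusted p = 0.00119, groups overlapping), and Ero1l (current symbol Ero1a), an oxidase that recharges disulfide isomerases (log2 -0.45 ± 0.08, adjusted p = 0.000123).

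The general ER chaperones rose too, with smaller log2 values than those isomerases. Hspa5, also called BiP, was at 2799, 2198, 3421 and 2649 CPM in SpdefKO_GC and 1602, 1409, 1759 and 1859 CPM in SpdefKO_EC (log2 0.74 ± 0.13, adjusted p = 0.00011). Hsp90b1, the ER HSP90, was at 2288, 1667, 2338 and 2288 CPM and 1005, 901, 990.4 and 1380.0 CPM (log2 1.01 ± 0.13, adjusted p = 2.21e-06). Library 5 was the lowest goblet library for both, and for Calr, the lectin chaperone calreticulin, which was at 1628, 1022, 1580.0 and 1327 CPM and 681, 469, 704 and 674 CPM (log2 1.14 ± 0.17, adjusted p = 1.9e-05). Pdia6, a disulfide isomerase, was at 524 against 167 CPM (log2 1.65 ± 0.14, adjusted p = 9.46e-09), and Creld2, a secreted ER stress protein, at 76.6 against 26.7 CPM (log2 1.52 ± 0.26, adjusted p = 0.000146). For each of these 5 genes the groups did not overlap. The same held, with SpdefKO_GC higher, for 3040 of the 12915 genes tested.

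Their promoters share a known element. The ER stress element is CCAAT followed, after any 9 bases, by CCACG. It was searched on both strands and was first described in promoters of this kind, so the list is not independent of it. It was searched in the 250 bases before each start of the RefSeq promoter table for GRCm38.p6. Of the 37 ER folding genes with a promoter in the table, 10 held it (27%), against 17 of the 10298 tested genes with a promoter (0.165%) and 37 of all 32851 promoters (0.113%). It was present in 8 of 848 such genes that were at least 2-fold higher in SpdefKO_GC (0.943%). Of the 10, 9 rose, beside 39 of all 44 tested genes of the list (88.6%) and 28% of all genes. Members with the element thus rose about as often as the list as a whole. The 9 were Calr, Creld2, Hsp90b1, Hspa5 and Pdia6 as above, and Derl3, Dnajc3, Syvn1 and Canx. The latter serve degradation, co-chaperoning, ubiquitination and lectin folding (log2 2.77, 1.10, 0.95 and 0.41). Ero1lb, the other disulfide oxidase, did not pass (log2 -0.06, adjusted p = 0.793). A match is a description of the letters, not a measured site. The sequences of 5 are shown because they hold the shared element, with its fixed letters in capitals, each as the 250 bases before the start in the direction of transcription. Hspa5 (chr2:34771840-34772089, plus strand, element 65 to 47 bases before the start), Pdia6 (chr12:17266339-17266588, plus strand, 98 to 80 bases before it) and Hsp90b1 (chr10:86705445-86705694, minus strand, 212 to 194 and, as the reverse complement, 107 to 89 bases before it) hold it as written above. Calr (chr8:84846932-84847181, minus strand, 162 to 144 bases before the start) and Creld2 (chr15:88819396-88819645, plus strand, 126 to 108 bases before it) hold the reverse complement.
Hspa5: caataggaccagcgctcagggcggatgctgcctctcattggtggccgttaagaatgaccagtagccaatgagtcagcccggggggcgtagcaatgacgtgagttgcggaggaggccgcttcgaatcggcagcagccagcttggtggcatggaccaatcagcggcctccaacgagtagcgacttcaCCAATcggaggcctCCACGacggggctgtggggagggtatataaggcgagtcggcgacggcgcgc
Pdia6: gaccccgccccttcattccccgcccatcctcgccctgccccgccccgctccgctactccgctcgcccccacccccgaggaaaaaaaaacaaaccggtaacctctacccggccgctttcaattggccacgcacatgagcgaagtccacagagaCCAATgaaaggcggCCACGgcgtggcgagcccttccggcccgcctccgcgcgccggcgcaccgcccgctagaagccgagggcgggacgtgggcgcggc
Hsp90b1: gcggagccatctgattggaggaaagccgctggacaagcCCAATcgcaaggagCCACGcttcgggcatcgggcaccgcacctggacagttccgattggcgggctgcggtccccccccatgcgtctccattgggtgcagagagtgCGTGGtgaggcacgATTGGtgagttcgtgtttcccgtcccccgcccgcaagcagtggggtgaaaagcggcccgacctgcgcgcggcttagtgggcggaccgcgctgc
Calr: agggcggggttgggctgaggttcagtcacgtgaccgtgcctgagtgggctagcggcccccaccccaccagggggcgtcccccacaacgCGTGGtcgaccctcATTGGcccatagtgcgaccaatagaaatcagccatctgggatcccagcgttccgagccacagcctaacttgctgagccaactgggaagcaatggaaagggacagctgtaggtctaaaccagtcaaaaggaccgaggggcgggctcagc
Creld2: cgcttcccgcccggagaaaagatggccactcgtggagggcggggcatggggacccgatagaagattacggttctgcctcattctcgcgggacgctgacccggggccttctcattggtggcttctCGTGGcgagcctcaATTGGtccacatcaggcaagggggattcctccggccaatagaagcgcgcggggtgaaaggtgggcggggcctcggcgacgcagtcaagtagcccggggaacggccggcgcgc

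Genes of protein entry into the ER and of the COPI and COPII coats, which carry vesicles between ER and Golgi, rose in 56 of 62 cases and fell in 3. The shares were 90.3% and 4.84%, against 28% and 28.4% of all genes. The median log2 of the list was 0.809 (1.07 in WT). Against the 1.5-fold bound 35 rose, beside 1312 of all 12915 genes. Copz2, a COPI subunit, was at 25.2 against 0.818 CPM (log2 4.95 ± 0.20, adjusted p = 2.13e-13). Kdelr3, a receptor that returns escaped proteins to the ER, was at 71.1 against 10.1 CPM (log2 2.80 ± 0.14, adjusted p = 2.04e-12) and had a smaller difference than in WT (interaction -0.97 ± 0.20, adjusted p = 0.00432). Mia3, or TANGO1, which loads bulky cargo into COPII carriers, was at 693 against 168 CPM (log2 2.04 ± 0.09, adjusted p = 7.19e-13). Sec23a, a COPII coat subunit, fell (log2 -0.75 ± 0.08, adjusted p = 1.03e-07), as did the COPII GTPase Sar1b and the COPI subunit Copg2 (log2 -0.35 and -0.22; with upper-quartile scaling Copg2 did not pass). In this list 15 genes had a smaller difference in SpdefKO than in WT and 1 a larger one, against 4.65% and 4.88% of all genes. Without WT_EC 10, 9 had a smaller one. With the block 41 had a smaller one, beside 13% of all genes.

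Genes of regulated granule exocytosis rose in 16 of 25 cases and fell in 5 (64% and 20%, against 28% and 28.4% of all genes), so the share that fell was below that over all genes. Sytl2, a Rab27 effector that docks granules, was at 428, 612, 514 and 532 CPM and 19.3, 11.9, 27.9 and 20.4 CPM (log2 4.71 ± 0.19, adjusted p = 1.29e-12). Rab3b and Rab37, small GTPases of secretory granules, were at 6.34 against 0.149 CPM and 6.15 against 0.402 CPM (log2 5.38 and 3.88). The members that fell were the membrane fusion proteins Stx3 and Vamp8, the Rab27 effectors Sytl1 and Unc13d and the syntaxin-binding Stxbp5, by 0.94, 0.53, 0.49, 0.48 and 0.17 on the log2 scale. Stxbp5 did not pass with upper-quartile scaling, without the filter on low counts or with only the 8 SpdefKO libraries. Of 30 tRNA synthetases and amino acid stress genes, 21 rose and 1 fell (70% and 3.33%, against 28% and 28.4% of all genes). Asns, asparagine synthetase, was at 94.4 against 29.3 CPM (log2 1.69 ± 0.15, adjusted p = 2.05e-08) and Chac1, a glutathione-degrading enzyme of the stress response, at 6.06 against 1.44 CPM (log2 2.12 ± 0.31, adjusted p = 1.02e-05), whereas Cth, a cysteine-producing enzyme, was at 33.6 against 88.4 CPM (log2 -1.40 ± 0.07, adjusted p = 7.53e-12).

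Markers of other epithelial lineages in the goblet fraction were read next. Deep crypt secretory cells of the colon and Paneth cells of the small intestine share many of their genes with goblet cells. All 12 of the tested markers rose, against 28% of all genes, with a median log2 of 4.93. Reg4, a lectin that marks deep crypt secretory cells, was at 946, 768, 904 and 999 CPM against 13.01, 9.53, 10.01 and 7.82 CPM (log2 6.47 ± 0.29, adjusted p = 2.97e-11). Ang4, an antimicrobial ribonuclease with near-identical relatives that may share reads, was at 216, 257, 129 and 128 CPM against 1.85, 2.48, 0.975 and 2.503 CPM (log2 6.57 ± 0.30, adjusted p = 2.3e-11), and was higher in libraries 3 and 5 than in 7 and 19. Cd24a, a surface marker, was at 892 against 240.2 CPM (log2 1.89 ± 0.12, adjusted p = 8.03e-11). Lyz1, the Paneth cell lysozyme, was near the limit of detection: 55 counts over the goblet libraries and 2 over the others, a ratio of 25.7 with a counting interval of 6.77–217. The summed level of the list was 4034–5102 CPM in SpdefKO_GC and 6397–11180 CPM in WT_GC.

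Enteroendocrine markers were lower in the goblet fraction of WT, and in SpdefKO most did not pass the test between fractions. Of 32 tested, 6 rose, 5 fell and 21 did not pass, with a median log2 of -0.036. The shares that rose and fell were 18.8% and 15.6%, against 28% and 28.4% of all genes. In WT 29 of the same genes were lower in the goblet fraction (30.2% of all genes were) and 1 higher (31%), with a median log2 of -1.99. The interaction itself was tested gene by gene, and 26 of 32 passed with a larger value in SpdefKO and 0 with a smaller one, against 4.88% of all genes. Those that did not pass were Pax6, Pcsk1, Cck, Tac1, Ddc and Slc18a1. With only genes of at least 5 CPM tested, 12 passed.

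The level of the list in each library shows where the genotypes differed. Its summed CPM was 361, 451, 447 and 484 in SpdefKO_GC and 592, 486, 474 and 402 in SpdefKO_EC, so that these groups overlapped. In WT_GC it was 203, 251, 218 and 224, below every SpdefKO_GC library, and in WT_EC 764, 849, 1006 and 868, above every SpdefKO_EC library. The enteroendocrine share of RNA was thus higher in the goblet fraction and lower in the other fraction of SpdefKO than in those of WT, in all 4 libraries of each. Whether goblet cells themselves or other cells sorted with them held this RNA was not tested, here or for the tuft markers below.

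Among the hormone and granule genes, Chgb, the granin chromogranin B, was at 102, 142, 142 and 144 CPM in SpdefKO_GC and 197, 174, 163 and 133 CPM in SpdefKO_EC (log2 -0.34 ± 0.14, adjusted p = 0.0512). It passed as lower with DESeq2-type size factors (adjusted p = 0.0461), DESeq2 (0.0365), limma-voom (0.0484) and without any of SpdefKO_EC 20 or SpdefKO_GC 7 or 19 (0.013–0.0495). In WT it was at 39.6, 59.4, 43.7 and 46.99 CPM in goblet cells and 293, 339.6, 396 and 331 CPM in the other cells (log2 -2.84, interaction 2.50 ± 0.20, adjusted p = 1.92e-06). Chgb in library 3 was apart from the other 3 goblet libraries. Chga, chromogranin A, had a log2 of -0.40 against -2.69 in WT (interaction 2.29 ± 0.22, adjusted p = 4.39e-06), and its small fall in SpdefKO (adjusted p = 0.0332) was lost without any of SpdefKO_EC 4, 6 or 8 or SpdefKO_GC 3 (adjusted p 0.0556–0.119) and with the block (0.0723). Gcg, which encodes glucagon-like peptides, was at 25.1, 39.6, 34.00 and 30.6 CPM against 34.1, 25.4, 24.9 and 16.6 CPM (log2 0.34 ± 0.17, adjusted p = 0.103; WT log2 -2.30; interaction 2.65 ± 0.25, adjusted p = 4.77e-06). Gcg passed as higher with upper-quartile scaling (adjusted p = 0.0314) and without SpdefKO_EC 4 (0.0128) or SpdefKO_GC 3 (0.0463). Pyy, peptide YY, was at 31.7 against 33.4 CPM (log2 -0.08 ± 0.22, adjusted p = 0.768) and at 10.7 against 49.6 CPM in WT (interaction 2.13 ± 0.32, adjusted p = 0.000635). Tph1, the serotonin-producing enzyme of enterochromaffin cells, was at 9.699, 16.5, 17.9 and 22.5 CPM against 33.7, 25.3, 24.1 and 20.96 CPM (log2 -0.66 ± 0.19, adjusted p = 0.00586) and at 5.54 against 53.98 CPM in WT (interaction 2.63 ± 0.27, adjusted p = 1.02e-05).

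The enteroendocrine genes that rose in SpdefKO_GC were Abcc8, Pcsk1, Sct, Neurog3, Nkx2-2 and Slc18a1. Abcc8, the sulfonylurea receptor of ATP-sensitive potassium channels, was at 15.4, 13.2, 16.5 and 10.6 CPM against 3.19, 1.44, 2.08 and 1.36 CPM (log2 2.75 ± 0.22, adjusted p = 3.42e-09), and at 1.55 against 2.93 CPM in WT (interaction 3.65 ± 0.34, adjusted p = 2.95e-06). Sct, secretin, was at 7.29, 7.996, 6.93 and 9.100 CPM against 2.42, 1.57, 1.88 and 1.56 CPM (log2 2.05 ± 0.19, adjusted p = 2.4e-08; interaction 2.67 ± 0.28, adjusted p = 6.99e-06). Neurog3, the factor that specifies enteroendocrine cells, was low, at 2.12, 2.43, 0.848 and 2.49 CPM against 0.8293, 0.653, 0.39 and 0.313 CPM (log2 1.79 ± 0.38, adjusted p = 0.000586), and the opposite-strand gene 2010107G23Rik overlaps it, so its reads are uncertain. Its interaction was 3.68 ± 0.60, adjusted p = 0.000729. Nkx2-2, a factor of endocrine differentiation, and Slc18a1, a monoamine transporter, were at 1.98 against 0.922 CPM and 6.23 against 3.62 CPM (log2 1.04 and 0.77). Pcsk1, a prohormone convertase, was at 21.4, 17.4, 24.6 and 19.98 CPM against 4.15, 4.37, 3.77 and 4.07 CPM (log2 2.35 ± 0.15, adjusted p = 8.33e-11) and was higher in the goblet fraction of WT too (log2 1.97; interaction adjusted p = 0.268). The 5 that fell were Tac1, Snap25, Tph1, Ddc and Chga. Tac1, which encodes substance P, was at 4.72 against 9.24 CPM (log2 -0.96 ± 0.16, adjusted p = 3.1e-05; WT log2 -1.01), Ddc, a monoamine-producing decarboxylase, at 65.3 against 97.7 CPM, and Snap25, a vesicle fusion protein, at 1.25 against 2.25 CPM.

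Abcg1, Gng2 and Rab3c, which are in none of the lists, were among the 5 largest positive interactions of genes with at least 5 CPM in a group. Abcg1, a sterol exporter, was at 29.5, 21.6, 34.5 and 20.3 CPM in SpdefKO_GC and 4.53, 3.07, 4.03 and 2.61 CPM in SpdefKO_EC (log2 2.87 ± 0.31, adjusted p = 6.53e-07), and at 8.96 against 21.9 CPM in WT (log2 -1.30; interaction 4.17 ± 0.42, adjusted p = 1.15e-05). Gng2, a G protein gamma subunit, was at 16.3, 16.4, 17.2 and 11.02 CPM and 1.02, 1.11, 1.56 and 0.104 CPM (log2 3.89 ± 0.30, adjusted p = 1.76e-09), beside 1.25 against 1.28 CPM in WT (interaction 3.95 ± 0.48, adjusted p = 4.05e-05). Rab3c, a GTPase of regulated secretion, was at 2.93 against 2.12 CPM (log2 0.46 ± 0.24, adjusted p = 0.116, and 0.0498 with upper-quartile scaling) and at 0.731 against 5.18 CPM in WT (interaction 3.22 ± 0.36, adjusted p = 1.37e-05).

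**Figure D2:**
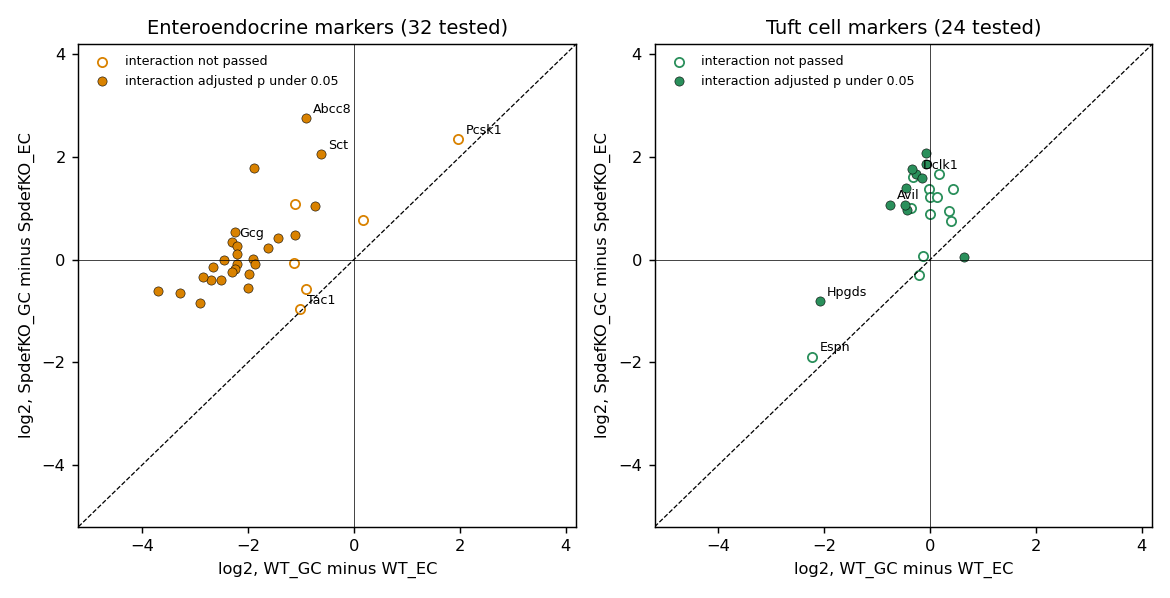
Log2 difference between goblet and other cells in SpdefKO (vertical) against that in WT (horizontal) for each tested enteroendocrine (left, 32) and tuft cell marker (right, 24), with the line of equality dashed and filled points where the interaction passed. 26 enteroendocrine markers and 11 tuft markers are filled, and the filled enteroendocrine points lie above the line.

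Most tuft cell markers rose in the goblet fraction of SpdefKO, at low levels. Of 24 tested, 16 rose and 2 fell (28% and 28.4% of all genes did), with a median log2 of 1.15. In WT 2 rose and 3 fell (31% and 30.2% of all genes did), fewer than over all genes, with a median log2 of -0.145. The interaction passed as larger for 10, against 4.88% of all genes, and as smaller for 1, Krt18. With the block it passed as larger for 16, beside 12.8% of all genes. With only genes of at least 5 CPM tested, 5 rose. Dclk1, a kinase that marks tuft cells, was at 18.7, 17.1, 18.1 and 6.398 CPM in SpdefKO_GC and 6.06, 4.37, 5.07 and 3.13 CPM in SpdefKO_EC (log2 1.67 ± 0.35, adjusted p = 0.000859). In WT it was at 15.7, 15.5, 22.9 and 16.1 CPM in goblet cells and 18.6, 15.2, 35.3 and 15.7 CPM in the others (interaction 1.94 ± 0.47, adjusted p = 0.0183). The SpdefKO_EC libraries were the low group, and 3 of the 4 SpdefKO_GC libraries lay within the range of the WT libraries, library 19 below it. With limma-voom this interaction did not pass (adjusted p = 0.0522). Trpm5, the taste cation channel, was at 9.99, 9.87, 9.402 and 4.98 CPM and 3.64, 2.68, 2.86 and 1.98 CPM (log2 1.59 ± 0.24, adjusted p = 1.43e-05), beside 10.3 against 11.4 CPM in WT (interaction 1.74 ± 0.32, adjusted p = 0.00194). Avil, an actin-binding protein, was at 7.42 against 3.52 CPM (log2 1.07 ± 0.20, adjusted p = 0.00011; interaction 1.83 ± 0.27, adjusted p = 0.00027). In WT Avil was at 5.46 against 9.26 CPM (log2 -0.76). On the opposite strand, Tssc4 overlaps Trpm5 and Tsfm overlaps Avil, so reads may be shared.

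Pou2f3, the factor that specifies tuft cells, was at 1.61, 1.88, 1.34 and 0.853 CPM against 0.574, 0.587, 0.78 and 0.104 CPM (log2 1.37 ± 0.36, adjusted p = 0.00337). The 2 tuft list genes that fell were Espn, an actin-bundling protein also of brush borders (8.75 against 32.4 CPM; log2 -1.89 ± 0.18, adjusted p = 2.91e-08), and Hpgds, a prostaglandin D synthase (4.91 against 8.69 CPM; log2 -0.81 ± 0.16, adjusted p = 0.000306; interaction 1.28 ± 0.23, adjusted p = 0.0015). Krt18, a keratin of many epithelial cells, was at 621–709.7 CPM in SpdefKO_GC and 583–686 CPM in SpdefKO_EC (log2 0.05 ± 0.09, adjusted p = 0.702). It held most of the summed level of this list, 744–797 CPM in SpdefKO_GC and 684–781 CPM in SpdefKO_EC. In WT the summed level of the list was 935–1118 CPM in goblet cells and 707–831 CPM in the other cells.

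**Figure D3:**
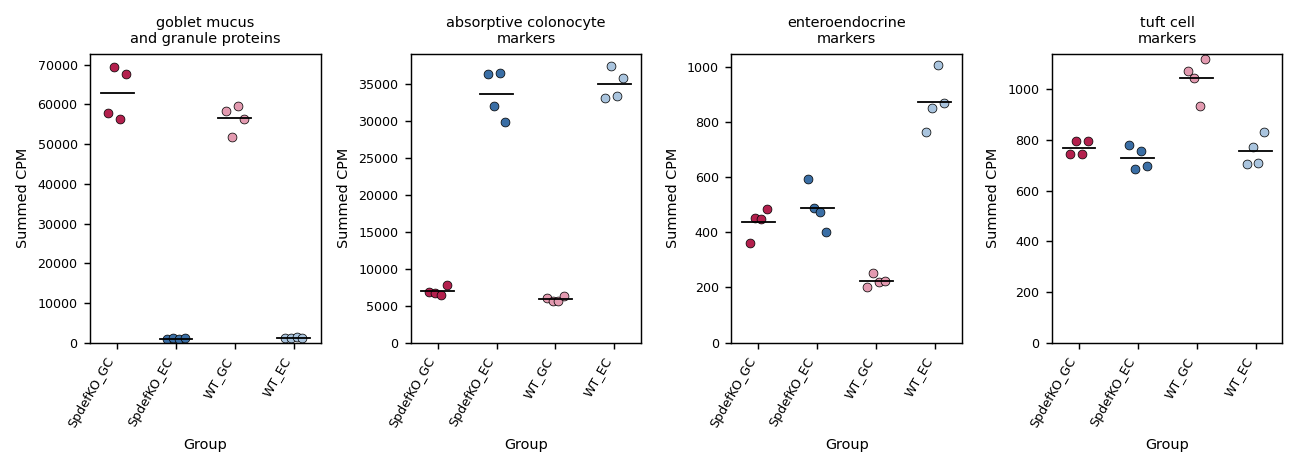
Summed CPM of 4 gene lists in each library, with a point per library (4 per group) and a line at the group mean, on axes from 0. Enteroendocrine sums overlap between SpdefKO_GC (361–484) and SpdefKO_EC (402–592) and do not between WT_GC (203–251) and WT_EC (764–1006).

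Markers of absorptive colonocytes, which take up salt, water and nutrients, fell in 35 of 40 cases and rose in 5. The shares of these markers were 87.5% and 12.5%, against 28.4% and 28% of all genes, with a median log2 of -2.49 (-2.55 in WT). Their summed level was 6440.0–7750.0 CPM in SpdefKO_GC and 29910.0–36490.0 CPM in SpdefKO_EC. Slc9a3, the apical sodium-proton exchanger, was at 14.9, 12.03, 10.96 and 16.9 CPM against 406, 361, 426 and 303 CPM (log2 -4.77 ± 0.18, adjusted p = 3.78e-13). Car4, a membrane carbonic anhydrase, was at 42.5 against 1125 CPM (log2 -4.72 ± 0.26, adjusted p = 3.46e-10) and Slc26a3, the chloride-bicarbonate exchanger, at 76.1 against 1620.3 CPM (log2 -4.41 ± 0.18, adjusted p = 9.04e-13). Mal, a protein of apical transport, was at 1.18 against 29.5 CPM (log2 -4.64). Prss30, a serine protease, Slc15a1, a peptide transporter, Gcnt2, a branching glycosyltransferase, and Tpm2, a tropomyosin, complete the 8 largest falls, at 10.8 against 301 CPM, 11.6 against 289.8 CPM, 2.23 against 56.2 CPM and 1.04 against 26.9 CPM (log2 -4.79, -4.64, -4.64 and -4.69).

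The 5 absorptive list genes that rose were Guca2b, Scnn1b, Anpep, Scnn1g and Dpp4. Guca2b, uroguanylin, was at 75.1, 73.4, 67.6 and 79.05 CPM in SpdefKO_GC and 3.13, 2.74, 3.96 and 1.88 CPM in SpdefKO_EC (log2 4.61 ± 0.15, adjusted p = 5.96e-15), beside 27.3 against 4.27 CPM in WT (interaction 1.95 ± 0.20, adjusted p = 7.12e-06). Scnn1b and Scnn1g, subunits of the epithelial sodium channel, were at 25.6 against 1.56 CPM and 7.61 against 0.825 CPM (log2 4.06 ± 0.29, adjusted p = 1.92e-09 for Scnn1b and log2 3.14 ± 0.51, adjusted p = 6.62e-05 for Scnn1g). Scnn1g was highest in goblet library 19, at 12.8 CPM beside 5.35–6.43 CPM in the other 3. The peptidases Anpep and Dpp4 were at 17.1 against 1.19 CPM and 113 against 76.8 CPM (log2 3.85 and 0.55; Anpep interaction 1.49 ± 0.32, adjusted p = 0.00635). In WT the same 5 were the ones higher in the goblet fraction.

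Stem and crypt base markers rose in 10 of 19 cases and fell in 4 (52.6% and 21.1%, against 28% and 28.4% of all genes). Ephb2, a receptor of crypt positioning, and Slc12a2, the basolateral chloride importer, rose (log2 0.73 ± 0.08, adjusted p = 3.03e-07 and log2 0.55 ± 0.09, adjusted p = 2.98e-05). The difference of Slc12a2 was smaller than in WT (interaction -0.70 ± 0.13, adjusted p = 0.00162). Prom1 and Cftr, a membrane protein and a chloride channel of crypt cells, fell (log2 -1.25 ± 0.11, adjusted p = 6.9e-09 and log2 -1.06 ± 0.11, adjusted p = 1.03e-07). Lgr5, the receptor that marks stem cells, was at 6.31, 6.12, 6.01 and 8.104 CPM and 8.102, 10.9, 10.01 and 7.195 CPM, with overlap (log2 -0.46 ± 0.17, adjusted p = 0.0299), and Smoc2, a secreted protein of stem cells, at 53.1 against 66.97 CPM (log2 -0.34 ± 0.13, adjusted p = 0.0364). Both falls were lost with upper-quartile scaling and without single libraries: that of Lgr5 without any of SpdefKO_EC 6 or 8 or SpdefKO_GC 3, 5 or 7 (adjusted p 0.0585–0.102), and that of Smoc2 without any of SpdefKO_EC 4 or 8 or SpdefKO_GC 5, 7 or 19 (adjusted p 0.0701–0.11). Ascl2, the stem cell transcription factor, had a log2 of -0.16 ± 0.22 (adjusted p = 0.558). Of 42 proliferation genes 41 did not pass, 0 fell and 1 rose, Mki67, at 925, 696, 807 and 837 CPM against 604, 479.9, 706 and 552 CPM (log2 0.48 ± 0.13, adjusted p = 0.00434). With upper-quartile scaling 4 rose, and with the block 15, beside 34.4% of all genes. The list's median deviation from the group mean had the same sign in both libraries of each of these pairs. It was 0.367, -0.499, 0.213 and -0.146 on the log2 scale in SpdefKO_GC and 0.316, -0.558, 0.442 and -0.239 in SpdefKO_EC, in the order of the pairs.

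Markers of cells from outside the epithelium were low in both fractions. Of 22 immune markers 9 were tested, with a summed level of the list of 10.8–17.5 CPM in SpdefKO_GC and 14.2–29.4 CPM in SpdefKO_EC, and Gzmb was at 0 in all 4 goblet libraries. Ptprc, or CD45, was at 1.495 against 6.42 CPM (log2 -2.10 ± 0.24, adjusted p = 3.08e-07) and Lyz2, the macrophage lysozyme, at 0.464 against 1.68 CPM (log2 -1.90 ± 0.42, adjusted p = 0.000736). Among the 9 tested, 6 fell and 2 rose (66.7% and 22.2%, against 28.4% and 28% of all genes). The 2 were Itgam and Cd68, an integrin and a lysosomal protein of myeloid cells (4.36 against 1.12 CPM and 3.84 against 1.96 CPM, log2 1.90 and 0.94). Of 17 stromal and endothelial markers 5 were tested, with sums of 21.8–24.4 CPM in SpdefKO_GC and 19.7–26.8 CPM in SpdefKO_EC, and the glial marker S100b was at 0 in all 4 goblet libraries. Pecam1, the endothelial adhesion protein, and Col3a1, a fibroblast collagen, fell (log2 -2.11 ± 0.29, adjusted p = 3.64e-06 and log2 -3.76 ± 1.29, adjusted p = 0.022), and Pdgfrb, a pericyte receptor, rose (log2 0.44 ± 0.17, adjusted p = 0.0299). The call of Col3a1 was lost without any of SpdefKO_EC 4 or SpdefKO_GC 3 or 5 (adjusted p up to 0.0652) and that of Pdgfrb without any of SpdefKO_EC 4, 6 or 20 or SpdefKO_GC 3 or 7 (up to 0.137). Vim, vimentin, was at 6.93 against 6.33 CPM (log2 0.10 ± 0.21, adjusted p = 0.707). The part of these cells in any difference above was not tested.

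Of 15 Notch pathway genes tested, 6 rose and 7 fell (40% and 46.7%, against 28% and 28.4% of all genes). The Delta ligands Dll1 and Dll4 rose, Dll1 at 119, 156, 129 and 129 CPM against 10.4, 12.4, 9.23 and 10.01 CPM (log2 3.66 ± 0.11, adjusted p = 2.72e-15) and Dll4 at 70.04 against 2.59 CPM (log2 4.75 ± 0.17, adjusted p = 4.87e-14). Dll1 had a larger difference than in WT (interaction 0.79 ± 0.15, adjusted p = 0.00208). Hes1, the Notch target that represses Atoh1, was at 82.2, 122, 85.9 and 105 CPM against 146, 236, 140.4 and 216 CPM (log2 -0.90 ± 0.18, adjusted p = 0.00038), and Numb, a Notch inhibitor, at 53.7 against 120.2 CPM (log2 -1.16 ± 0.08, adjusted p = 3.33e-10). Among 19 genes of chloride and bicarbonate transport 6 rose and 11 fell (31.6% and 57.9%). The share that rose was thus near the 28% over all genes, and the share that fell was above the 28.4%. Fxyd3, a regulator of the sodium pump, was at 57.4 against 10.8 CPM (log2 2.39 ± 0.14, adjusted p = 3.22e-11) and Clcn2, a chloride channel whose exons overlap Fam131a and Polr2h on the opposite strand, at 47.4 against 469.5 CPM (log2 -3.31 ± 0.12, adjusted p = 2.5e-14).

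Of 21 antimicrobial and mucosal defence genes 9 rose and 10 fell (42.9% and 47.6%, against 28% and 28.4% of all genes). Mptx1, Retnlb, Zg16, Ang4 and Lyz1 of the secretory lists above were among those that rose. Saa1 and Saa2, acute-phase apolipoproteins whose near-identical sequences may share reads, were at 35.5 against 652 CPM and 0.322 against 6.93 CPM (log2 -4.20 and -4.37), and Lypd8, which binds flagella, at 1149 against 6296 CPM (log2 -2.45 ± 0.11, adjusted p = 9.78e-13). Interferon response genes fell in 22 of 39 cases and rose in 2 (56.4% and 5.13%, against 28.4% and 28% of all genes). With the block 32 fell and 4 rose, beside 33% and 34.4% of all genes. Ifit1 and Ifit3, interferon-induced proteins that bind viral RNA or its sensors, were at 3.39, 5.49, 3.11 and 3.41 CPM against 58.8, 45.5, 40.4 and 30.4 CPM (log2 -3.51 ± 0.24, adjusted p = 1.06e-09) and at 0.402 against 5.56 CPM (log2 -3.79 ± 0.33, adjusted p = 1.03e-08). The 2 that rose were Oas2, an RNA-sensing synthetase (log2 0.89 ± 0.19, adjusted p = 0.000467), and Ddx58, the RIG-I sensor (log2 0.52 ± 0.18, adjusted p = 0.0198; lost without SpdefKO_GC 5, adjusted p = 0.0918, and without SpdefKO_EC 8 or 20). The summed level of the list varied widely between libraries, over 866–1996 CPM in SpdefKO_GC and 1413–2964 CPM in SpdefKO_EC. Libraries 3 and 5 of SpdefKO_GC and 4 and 6 of SpdefKO_EC held the higher sums of their groups. Of 7 MHC class II genes, which present antigen, 6 fell and 0 rose (28.4% and 28% of all genes did). H2-Aa was at 5.05, 7.16, 1.77 and 1.78 CPM against 29.03, 33.5, 23.9 and 9.802 CPM (log2 -2.61 ± 0.40, adjusted p = 4.3e-05).

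Metabolic genes of the oxidative kind were lower in the goblet fraction by small amounts. Of 69 nuclear respiratory chain genes 56 fell and 1 rose (81.2% and 1.45%, against 28.4% and 28% of all genes). The median log2 was -0.375 (-0.117 in WT). Against the 1.5-fold bound 3 fell, beside 1580 of all 12915 genes. Cox5a, a subunit of cytochrome oxidase, was at 152 against 302 CPM (log2 -0.99 ± 0.08, adjusted p = 3.06e-09), and the 1 that rose was Ndufa4 (log2 0.27 ± 0.11, adjusted p = 0.0486), a call lost without any of SpdefKO_EC 6, 8 or 20 or SpdefKO_GC 3, 7 or 19 (adjusted p up to 0.172). Of 29 fatty acid oxidation and ketogenesis genes 25 fell and 3 rose (86.2% and 10.3%, against 28.4% and 28% of all genes). Slc25a20, the mitochondrial carnitine carrier, was at 34.8 against 208 CPM (log2 -2.58 ± 0.12, adjusted p = 9.23e-13). Acsl1, which activates fatty acids, rose (log2 2.07 ± 0.11, adjusted p = 1.22e-11), as did the beta-oxidation enzymes Acaa2 and Eci2 (log2 0.38 and 0.25; the call of Eci2 was lost without any of SpdefKO_EC 4 or 8 or SpdefKO_GC 5 or 19, adjusted p up to 0.117). Tight junction and adhesion genes fell in 19 of 26 cases and rose in 2 (73.1% and 7.69%, against 28.4% and 28% of all genes). Cldn23, a claudin of surface colonocytes, was at 70.6 against 298 CPM (log2 -2.08 ± 0.08, adjusted p = 1.72e-13), and the 2 that rose were the claudins of leaky junctions Cldn15 and Cldn2 (log2 2.36 ± 0.09, adjusted p = 4.87e-14 and log2 0.60 ± 0.16, adjusted p = 0.0042). Of 22 genes induced by tissue dissociation 3 rose and 8 fell (13.6% and 36.4%, against 28% and 28.4% of all genes). The 3 were the heat shock genes Hspa1a, Hspa1b and Hspb1 (log2 0.47, 0.44 and 0.64). With the block 5 rose and 13 fell, beside 34.4% and 33% of all genes. The rise of Hspb1 was lost without any of SpdefKO_EC 4 or SpdefKO_GC 5 or 19 (adjusted p up to 0.0678). The part of these genes in other differences was not tested.

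**Figure D4:**
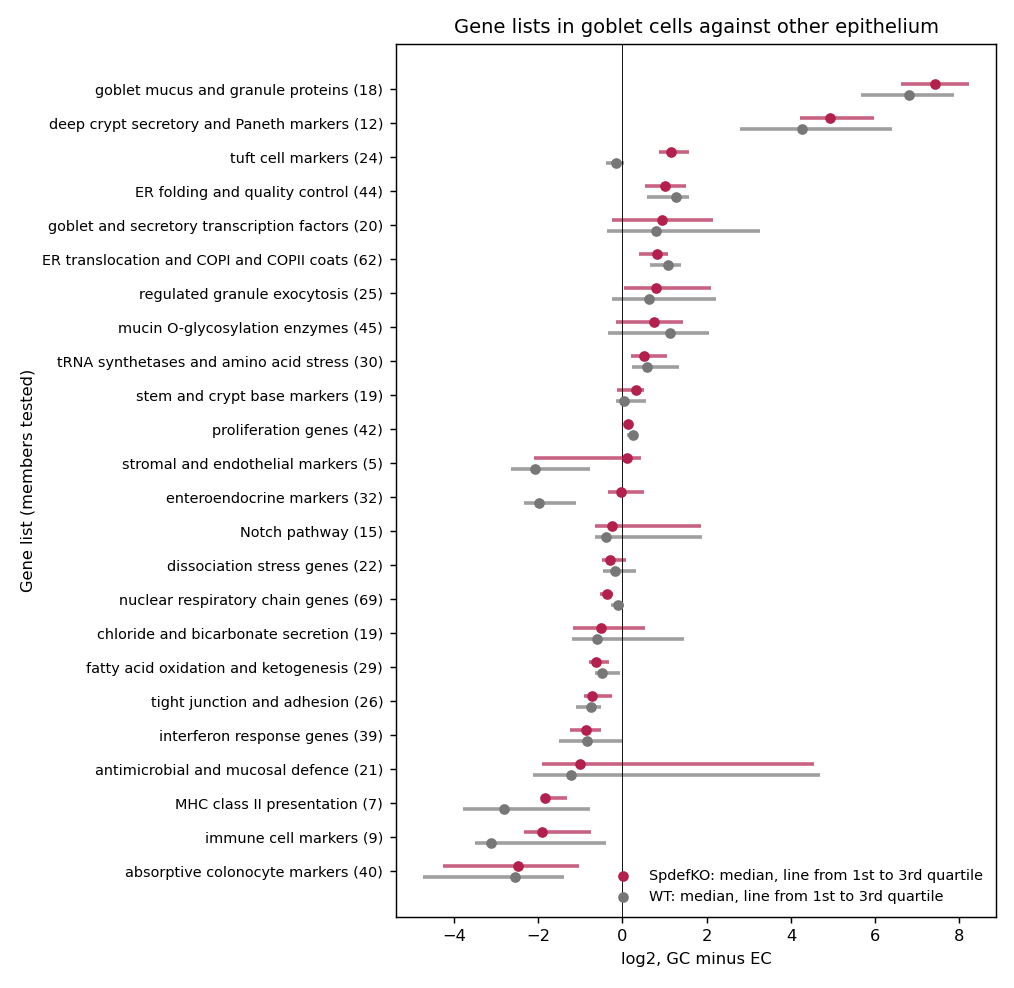
Median log2 difference between goblet and other cells (points) with the interquartile range over the tested members (lines), for each of 24 gene lists in SpdefKO (red) and WT (grey), sorted by the SpdefKO median. The goblet mucus list has a median of 7.41 in SpdefKO and 6.80 in WT, and the enteroendocrine and tuft lists have medians of -0.036 and 1.15 in SpdefKO and of -1.99 and -0.145 in WT.

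The calls of both genotypes were set side by side last. The comparisons share no library. Of the 3619 genes higher in SpdefKO_GC, 2853 (78.8%) were higher in WT_GC too, where they made up 71.2% of 4007, and 41 were lower there. Of the 3666 lower genes, 3042 (83.0%) were lower in WT_GC, 78.1% of 3894 there, and 44 were higher. Among the 1157 genes that were at least 2-fold higher in WT_GC, 1093 (94.5%) rose in SpdefKO_GC, 5 fell and 59 did not pass, and 206 (17.8%) had a smaller signed difference by the interaction test, against 4.65% of all genes. Among the 1642 genes that were at least 2-fold lower in WT_GC, 1393 (84.8%) fell in SpdefKO_GC, 8 rose and 241 did not pass, and 272 (16.6%) had a larger signed difference, against 4.88% of all genes. These sets were chosen on the WT difference, which enters the interaction, so their interaction shares are a description.

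**Figure D5:**
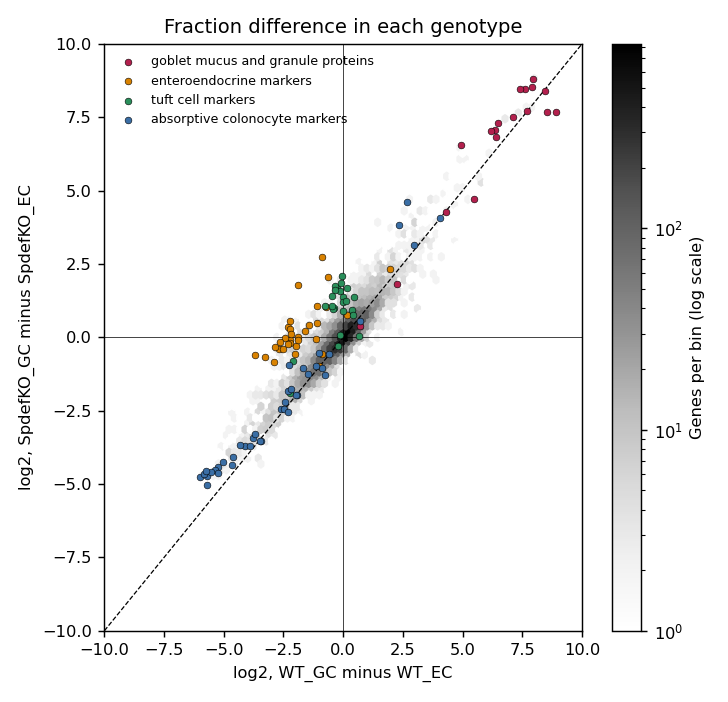
Log2 difference between goblet and other cells in SpdefKO (vertical) against WT (horizontal) over the 12915 tested genes, as shaded bins on a log scale of gene number, with 4 lists as coloured points and the line of equality dashed. Most goblet mucus proteins lie towards the upper end and most absorptive markers towards the lower end. Their medians are 7.41 and -2.49 in SpdefKO and 6.80 and -2.55 in WT. Absorptive markers range from -5.03 to 4.61 in SpdefKO. Enteroendocrine markers lie mostly to the left of the line, with a median of -0.036 on the vertical axis.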

How the data were processed

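Sorted distal colon cells were profiled by RNA sequencing of total RNA, 4 libraries in each of 4 groups. Per the submitters' processing notes the tools were FastQC 0.11.2, STAR 2.4.0f, HTSeq 0.6.1p1 and DESeq2 1.14 with the mm10 build. The sources used here give neither annotation nor strand setting, so overlapping genes on opposite strands may share reads. The authors deposited raw counts per gene symbol, and a second table of counts divided by a size factor per library, a normalised signal that was not used. Of the raw counts, 3 entries that name no gene held 47.1–54.7% per library and were left out, and 27 symbols had been turned into dates. Gene counts per library in the compared groups are given with the results.

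Counts were analysed in R 4.3.3 with edgeR 4.0.16 (limma 3.58.1, DESeq2 1.42.0 for alternatives): edgeR's low-count filter kept 12915 of 21442 genes, libraries were scaled by TMM, and 1 robust quasi-likelihood model over all 16 libraries shared the spread (biological coefficient of variation 11.7%). Contrasts were SpdefKO_GC minus SpdefKO_EC, the same in WT, and the difference of both (interaction). P-values were Benjamini-Hochberg adjusted over all tested genes. Standard errors are the log2 difference over the square root of F. The steps were tested on simulated data. No pair of libraries within a group agreed within sampling noise.

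Genes were named by a rule: the 5 markers and Spdef, the 8 largest changes each way without overlap and with at least 5 CPM, the 3 largest each way in each of 24 lists, members that went against their list, and the 5 largest interactions each way. Further names were chosen after their values were seen, and some named by the rule are not reported here. The members, lists and rule were chosen with earlier results of these data known. Positions are from GENCODE on GRCm38 and promoters from RefSeq GRCm38.p6, matched by symbol for 12779 and 10298 of the tested genes. Deviations from the group means were correlated over genes between GC and EC libraries: each GC library correlated best with the EC library of the neighbouring number (r 0.125–0.613), though the labels give no pairing, so these pairs were added as a block after seeing the data. Other alternatives were other scalings, filters and tools, a 1.5-fold bound, only the SpdefKO libraries, and each library left out.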

Additional observations from a re-analysis of the deposited data

Results flagged for a closer look

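In 22 of the 298 groups of 4 libraries examined, 1 library stood apart from the other 3 by Dixon's criterion, and chance alone would mark about 1 in 20 groups (14.9 of 298). In SpdefKO_GC, library 19 was apart for Zg16 (10760.0 CPM), Dclk1 (6.40 CPM), Trpm5 (4.98 CPM), Gng2 (11.02 CPM), Lgr5 (8.10 CPM) and Scnn1g (12.8 CPM). Library 5 was apart for Hsp90b1 (1667 CPM), Oas2 (10.7 CPM) and Ifit1 (5.49 CPM), library 7 for Dnajb9 (90.8 CPM) and Vamp8 (64.2 CPM), and library 3 for Chgb (102 CPM), Cftr (122 CPM) and Ascl2 (2.01 CPM). In SpdefKO_EC, library 6 was apart for Fcgbp (75.5 CPM), Calr (469 CPM), Sar1b (52.4 CPM), Dpp4 (71.7 CPM), Ero1lb (6.59 CPM) and Lyz1 (0.131 CPM, the others at 0), and library 20 for Capn9 (0.209 CPM) and Fxyd3 (7.51 CPM).

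The difference between fractions depended on genotype, by the edgeR interaction test with adjusted p-values, for 27 of the 33 genes whose interaction is reported. Some of the 33 were named for a large interaction or after their values were seen, so this share is a description of the choice. Over all genes 4.88% had a larger and 4.65% a smaller signed difference. The signed difference was larger in SpdefKO for the goblet products Tff3 (0.85), Muc2 (0.84), Fcgbp (0.83) and Clca3 (0.70) and for the ligand Dll1 (0.79), all on the log2 scale. Among enteroendocrine genes it was larger for Neurog3 (3.68), Abcc8 (3.65), Sct (2.67), Gcg (2.65), Tph1 (2.63), Chgb (2.50), Chga (2.29) and Pyy (2.13), and among tuft genes for Dclk1 (1.94), Avil (1.83), Trpm5 (1.74) and Hpgds (1.28). Of these, Tph1, Chgb, Chga, Pyy and Hpgds had negative log2 values in both genotypes, smaller in size in SpdefKO. For Chgb, for example, the log2 was -0.34 in SpdefKO and -2.84 in WT. The other enteroendocrine and tuft genes named here were negative in WT and positive in SpdefKO. Of those, Neurog3, Abcc8, Sct and Avil passed the test between fractions in both genotypes. Gcg did not pass in SpdefKO (adjusted p = 0.103), and Trpm5 and Dclk1 did not pass in WT (log2 -0.15 and -0.27). Outside these genes the signed difference was larger for Abcg1 (4.17), Gng2 (3.95), Rab3c (3.22), Guca2b (1.95) and Anpep (1.49). It was smaller in SpdefKO for B3gnt6 (-4.72), Casc4 (-4.01), Creb3l4 (-3.87), Kdelr3 (-0.97) and Slc12a2 (-0.70).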

How the results depend on the processing

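The groups share no library number, and the labels pair no libraries. With neighbouring numbers as a replicate block, an alternative chosen after seeing the data, 4437 genes were higher and 4256 lower in SpdefKO_GC, 1654 had a larger and 1675 a smaller difference than in WT, and Spdef had a log2 of 7.40. The block changed the call of Chga and of the interactions of Spink4, Mptx1 and Aqp8, and no other call of a named gene. It raised the smaller differences from 8 to 19 among 44 ER folding genes and from 10 to 39 among 69 respiratory chain genes. Among 29 fatty acid oxidation genes they rose from 5 to 11, and among 30 tRNA synthetase and amino acid stress genes from 1 to 8. The larger ones rose from 10 to 17 among 40 absorptive cell genes. Over all genes the block raised the smaller differences from 4.65% to 13% and the larger ones from 4.88% to 12.8%. Against a 1.5-fold bound, 1312 genes were higher and 1580 lower in SpdefKO_GC, and 102 had a larger and 44 a smaller difference than in WT. Upper-quartile scaling gave 4752 higher and 3047 lower genes, 60.9% higher among the calls against 49.7%. With single SpdefKO libraries left out, 3371–3570 genes were higher and 3580–3681 lower, and leaving out WT libraries gave up to 3622 higher and 3774 lower. Over all 16 libraries left out in turn, 459–797 differences were larger and 387–718 smaller than in WT. The last was 394 without WT_EC 12, 388 without WT_EC 17 and 387 without SpdefKO_EC 4. Spdef kept a log2 of 7.21–7.71. Named genes between SpdefKO fractions were refitted without each SpdefKO library, and interactions without each of the 16. Directions that turned were of values that did not pass: Pyy (0.031 with upper-quartile scaling, and -0.27 to 0.15 with single libraries left out, above 0 without SpdefKO_EC 4 or SpdefKO_GC 3), Ero1lb (0.059 with upper-quartile scaling, and -0.207 to 0.0816 with single libraries left out, above 0 without SpdefKO_GC 5), Vim (-0.11 to 0.21, below 0 without SpdefKO_EC 20) and the interaction of Nov (-0.10 to 0.44, below 0 without WT_EC 14). Leaving out SpdefKO_EC 6 moved Gm6086 to 9.77 and Lyz1 to 6.75, and leaving out WT_GC 11 moved the interaction of Neurog3 to 4.31. The cause was not tested. Of the ER folding genes 8 had a smaller difference in SpdefKO than in WT, and 3 without SpdefKO_EC 4. With only genes of at least 5 CPM tested, fewer genes enter, which lowers the list counts of rare cell types. Low depth limits genes near 1 CPM most.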
